A study of Mus musculus with 18 samples.

Results

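Transcript levels of 37 genes of the integrated stress response, of amino acid supply and of the endoplasmic reticulum (ER) were followed in mouse bone marrow cells that carried 0, 1 or 2 intact copies of Fabp4, the gene of a fatty acid binding protein. The 37 genes were taken by name from a fixed list, out of 22608 genes in the deposited tables. That list was chosen with earlier results of these data known, so counts and medians over it are descriptive. They were divided by role into an Atf4 amino acid arm of 27 genes, an ER chaperone arm of 8 genes and the 2 stress kinases Eif2ak3 and Eif2ak4. Bulk RNA sequencing was done on cells sorted from an in vitro preparation of bone marrow (in vitro set) and on cells sorted directly from bone marrow (marrow set). The in vitro set held 3 Fabp4 homozygous knockout (KO), 3 heterozygous knockout (HET) and 3 wild-type (WT) libraries. The marrow set held 3 KO, 2 HET (replicates 1 and 3) and 3 WT libraries, and a HET replicate 2 that the labels also name was not analysed here. The labels do not name the sorted population, the culture, the strain, the age or the way in which Fabp4 was disrupted. Whether the libraries of a group stem from different mice is also not stated, so p-values reflect library-to-library spread only. In bulk libraries such as these, fewer cells of a type and less RNA per cell cannot be told apart.

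The integrated stress response begins with kinases that phosphorylate the translation factor eIF2alpha, among them Eif2ak4 (GCN2), which senses uncharged tRNA, and Eif2ak3 (PERK), which senses unfolded protein in the ER. Phosphorylation slows most translation and favours that of Atf4, a bZIP transcription factor whose targets make and import amino acids, charge tRNA and feed back on the pathway. The ER chaperone arm answers to Xbp1 and Atf6 instead and holds the chaperones and disulfide isomerases that fold secreted proteins, so the levels of both arms can move together or apart.

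The arms differ in the short DNA elements that their factors are known to bind, and stretches of the promoters that hold such an element are shown for that reason. The 250 bases before a RefSeq start site of 32 of the 37 genes were searched on both strands (GRCm38.p6); Slc1a5, Eif4ebp1, Cth, Slc7a5 and Wars1 have no entry in the promoter table. The C/EBP-ATF response element (CARE), searched as TGATGNAA, was found in 5 of 22 genes of the Atf4 arm and in 1 of 8 genes of the ER arm, against 3.45% of all 32851 promoters. The ER stress response element (ERSE), searched as CCAAT and CCACG with 9 bases between, was found in 0 of 22 and in 3 of 8, against 0.113% of all promoters. Its short form ERSE-II, searched as ATTGG and CCACG with 1 base between, was found in Herpud1 alone among the 32, against 0.0304% of all promoters. The element TGACGTGG was found in none of the 32, against 0.563% of all promoters. Capitals mark the element, lower case its flanks, and each line reads 5′ to 3′ in the direction of the gene. A capital stretch that begins TTGCATCA or ends in the reverse of a CCAAT box is the element on the opposite strand. The CARE stretches are at chr1:191183410-191183469 (Atf3, minus strand), chr2:119351023-119351082 (Chac1, plus), chr6:7693210-7693258 (Asns, minus), chr11:120643818-120643877 (Pycr1, minus), chr3:50443627-50443705 (Slc7a11, minus, with 2 elements) and chr8:94386291-94386350 (Herpud1, plus). The start used for Slc7a11 lies 55474 bases inside the RefSeq span of that gene, and the starts of the other genes shown are the outermost of their spans.
Atf3: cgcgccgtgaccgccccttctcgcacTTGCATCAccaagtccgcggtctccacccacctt
Chac1: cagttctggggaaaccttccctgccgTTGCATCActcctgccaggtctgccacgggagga
Asns: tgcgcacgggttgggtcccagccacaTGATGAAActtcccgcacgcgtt
Pycr1: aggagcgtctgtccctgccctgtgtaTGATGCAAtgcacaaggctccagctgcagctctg
Slc7a11: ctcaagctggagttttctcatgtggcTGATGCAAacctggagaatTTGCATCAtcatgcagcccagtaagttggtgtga
Herpud1, CARE: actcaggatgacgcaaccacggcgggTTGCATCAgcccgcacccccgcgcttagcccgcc

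The ERSE stretches are at chr2:34771999-34772069 (Hspa5, plus strand), chr10:86705612-86705682 and chr10:86705507-86705577 (the pair in Hsp90b1, minus) and chr15:88819494-88819564 (Creld2, plus), and the ERSE-II stretch is at chr8:94386351-94386413 (Herpud1, plus). Herpud1 was thus the gene of the ER arm whose window held an element of both kinds. A match describes these letters in this window only.
Hspa5: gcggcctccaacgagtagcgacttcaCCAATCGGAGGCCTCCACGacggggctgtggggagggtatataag
Hsp90b1, distal: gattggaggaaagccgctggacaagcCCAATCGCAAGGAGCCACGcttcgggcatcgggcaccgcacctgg
Hsp90b1, proximal: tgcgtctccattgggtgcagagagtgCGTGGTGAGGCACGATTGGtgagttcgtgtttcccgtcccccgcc
Creld2: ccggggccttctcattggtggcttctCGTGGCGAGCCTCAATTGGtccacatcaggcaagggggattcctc
Herpud1, ERSE-II: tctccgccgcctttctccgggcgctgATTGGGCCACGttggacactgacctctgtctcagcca

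The sets differed in what they could resolve. Values were FPKM (fragment counts divided by transcript length and sequencing depth) as the authors deposited them. Approximate depth, estimated from the step between low values, was 30.8 to 36.8 M (mega) fragments in vitro. In marrow it was 16.6 to 35.7 M in KO, 4.01 and 11.6 M in HET and 22.1 to 31.2 M in WT. Between 16779 and 18029 genes were above 0 per in vitro library, and pairs of libraries had Spearman coefficients of 0.962 to 0.970 across genes. In marrow these were 3633 to 8526 genes and 0.427 to 0.621. Fabp4 was listed at 0 in the 3 KO libraries in vitro, at 0, 0.0676 and 0 FPKM in HET and at 0, 0.0326 and 0.330 FPKM in WT, and it was not among the genes of the marrow table, so its level does not check the labels. Summed FPKM of 10 neutrophil genes in vitro was 1568 to 2407 in KO, 2256 to 4434 in HET and 606 to 1822 in WT. That of 10 monocyte and macrophage genes was 83.8 to 88.5 in KO, 107 to 119 in HET and 53.9 to 70.1 in WT. The monocyte and macrophage sum was thus higher in every KO and HET library than in any WT library. The neutrophil sum was higher than WT in every HET library, while KO and WT overlapped. The 6 genes of plasma cells, a cell type rich in ER chaperones, summed to 1.91 FPKM or less in every in vitro library. No gene of these 3 lists was at 0 in all in vitro libraries, and their part in the results below was not tested. Other marker sums also separated genotypes in vitro. That of 8 stem and progenitor genes was 186 to 210 FPKM in KO, 141 to 159 FPKM in HET and 159 to 202 FPKM in WT. That of 7 erythroid genes was 131 to 186 FPKM in KO, 113 to 134 FPKM in HET and 157 to 184 FPKM in WT. Their part was not tested either.

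All 37 genes were above 0 in every in vitro library, and all passed the filter for testing (3 or more libraries at 1 FPKM or above). In WT cells their mean levels on the FPKM scale ran from 494 ± 37.2 for Hsp90b1 (Grp94, an ER chaperone) to 1.79 ± 0.376 for Chac1 (a glutathione-degrading enzyme) (SD, n = 3 each). Hsp90b1 and Hspa5 (BiP, the main ER chaperone) led at the 98.7th and 98.5th percentile of the 10877 tested genes, followed by Atf4 at 253 ± 24.8 FPKM. Eif4ebp1, Psat1 and Xbp1 came next at 153, 147 and 145 FPKM, and these neighbours overlapped within their SD. Both kinases lay lower, at the 48.5th and 38.6th percentile, with 9.01 ± 1.24 FPKM for Eif2ak4 and 6.22 ± 0.965 FPKM for Eif2ak3 in WT. The stress-inducible genes Chac1, Slc7a11 and Atf3 were at 1.79, 2.47 and 6.69 FPKM in WT, the 11.1th, 16.9th and 40.6th percentile. Ppp1r15a, Asns, Trib3 and Ddit3 of the same arm lay higher, at the 93.05th, 89.4th, 79.9th and 64.6th percentile.

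In KO cells against WT cells in vitro, 2 of 5 effectors and 1 of 9 amino acid synthesis genes of the Atf4 arm fell, and no gene of the ER arm passed the test. The genes that fell were Trib3, Eif4ebp1 and Asns, and no member rose, so 3 of 37 were called by limma at an adjusted p under 0.05, against 2.99% of all genes (1.63% lower and 1.36% higher). In 12 of the 37 every KO library lay below every WT library, against 9.09% of all genes, and no member had the reverse, against 13.8% of all genes. All 12 belonged to the Atf4 arm. The number called was 5 without HET replicate 1, which enters through the shared spread, and 6 without WT replicate 1, of which 2 were higher (Atf3 and Slc38a2). The median log2 change was -0.18 over the 27 genes of that arm and 0.03 over the 8 genes of the ER arm, beside 0.04 over all tested genes.

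**Figure D1:**
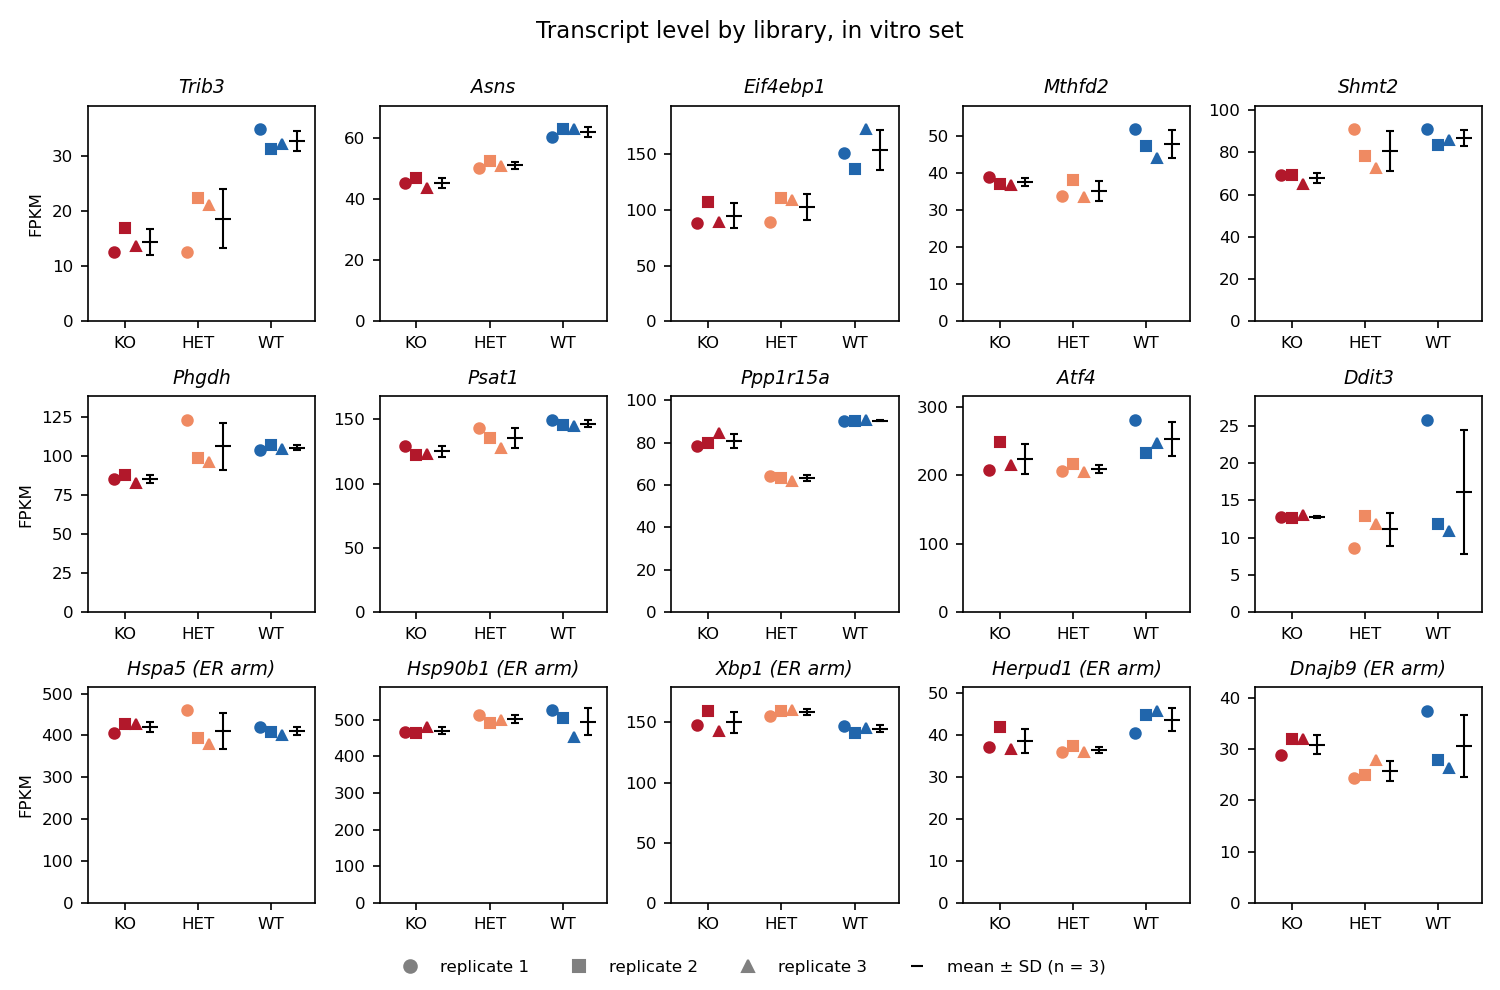
FPKM (linear axes from 0) of 15 genes in each in vitro library, by genotype (KO, HET, WT). Points are libraries, marked by replicate number, and bars are mean ± SD (n = 3). Trib3, Asns and Eif4ebp1 lie lower in all KO and HET libraries than in any WT library, Ppp1r15a is lowest in HET, and the 5 ER arm genes in the bottom row overlap between KO and WT.

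Trib3, a pseudokinase encoded by an Atf4 target gene (chr2:152337425-152344060, GRCm38.p6), had 12.5, 16.9 and 13.7 FPKM in the KO libraries, 12.5, 22.3 and 21.0 FPKM in HET and 34.8, 31.2 and 32.2 FPKM in WT. Every KO and HET library was lower than the lowest WT library. The KO mean was 56.1% below that of WT, with -1.14 ± 0.18 (SE) as the log2 change (limma, adjusted p = 0.00768), at the 0.156th percentile of changes among tested genes.
Eif4ebp1 encodes 4E-BP1, which holds back cap-dependent translation (chr8:27260327-27275656). Its level was 88.3, 107 and 88.8 FPKM in KO, 89.0, 111 and 108 FPKM in HET and 151, 137 and 173 FPKM in WT, again with no overlap between WT and the other genotypes. The KO mean was 38.2% below WT, with a log2 change of -0.69 ± 0.11 (limma, adjusted p = 0.0103). Without KO replicate 1 or replicate 3 the adjusted p was 0.0571 or 0.0615, so the call was lost without either library.
Asns, asparagine synthetase (chr6:7675165-7693209), had 45.3, 47.0 and 43.6 FPKM in KO, 50.2, 52.4 and 50.9 FPKM in HET and 60.3, 63.0 and 62.9 FPKM in WT. The 3 genotypes did not overlap at all, with KO lowest, HET between and WT highest. The KO mean was 27.1% below WT, a log2 change of -0.45 ± 0.06 (limma, adjusted p = 0.0044). Trib3 and Asns passed the threshold in all 17 alternative settings, with adjusted p up to 0.0483 for Trib3 and up to 0.0415 for Asns.

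The other enzymes of amino acid synthesis lay in the same direction without passing the threshold. All 9, Asns included, had a negative log2 change, with a median of -0.30 and a range of -0.45 to -0.04, beside 4439 negative changes among all 10877 tested genes. In 7 of the 9 every KO library lay below every WT library, against 9.09% of all genes. Closest to the threshold were the mitochondrial one-carbon enzymes. Mthfd2 had 38.9, 37.02 and 36.8 FPKM in KO and 51.7, 47.2 and 44.1 FPKM in WT (log2 change -0.33, limma adjusted p = 0.0502). Shmt2 had 69.4, 69.4 and 65.0 FPKM in KO and 91.0, 83.5 and 85.9 FPKM in WT (log2 change -0.35, limma adjusted p = 0.0508). Both were past the threshold with a filter at 5 FPKM, with quantile normalization and with median-ratio size factors, at adjusted p of 0.0309 to 0.0469. The serine pathway followed with Phgdh, its first enzyme, at 85.6, 88.0 and 82.8 FPKM in KO and 104, 107 and 105 FPKM in WT (log2 change -0.30, limma adjusted p = 0.0964). Psat1, the next enzyme of that pathway, had 130, 122 and 123 FPKM in KO and 150, 146 and 144 FPKM in WT (log2 change -0.23, limma adjusted p = 0.0885). Psph, which completes serine synthesis, and Cth, which makes cysteine from cystathionine, also did not overlap between KO and WT, with log2 changes of -0.23 and -0.34. The proline enzymes Aldh18a1 and Pycr1 were the pair that overlapped, with log2 changes of -0.08 and -0.04. The 5 serine and one-carbon enzymes thus had KO means 14.7 to 21.8% below WT, against 5.90 and 3.06% for the proline enzymes, a contrast that was not tested.

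**Figure D2:**
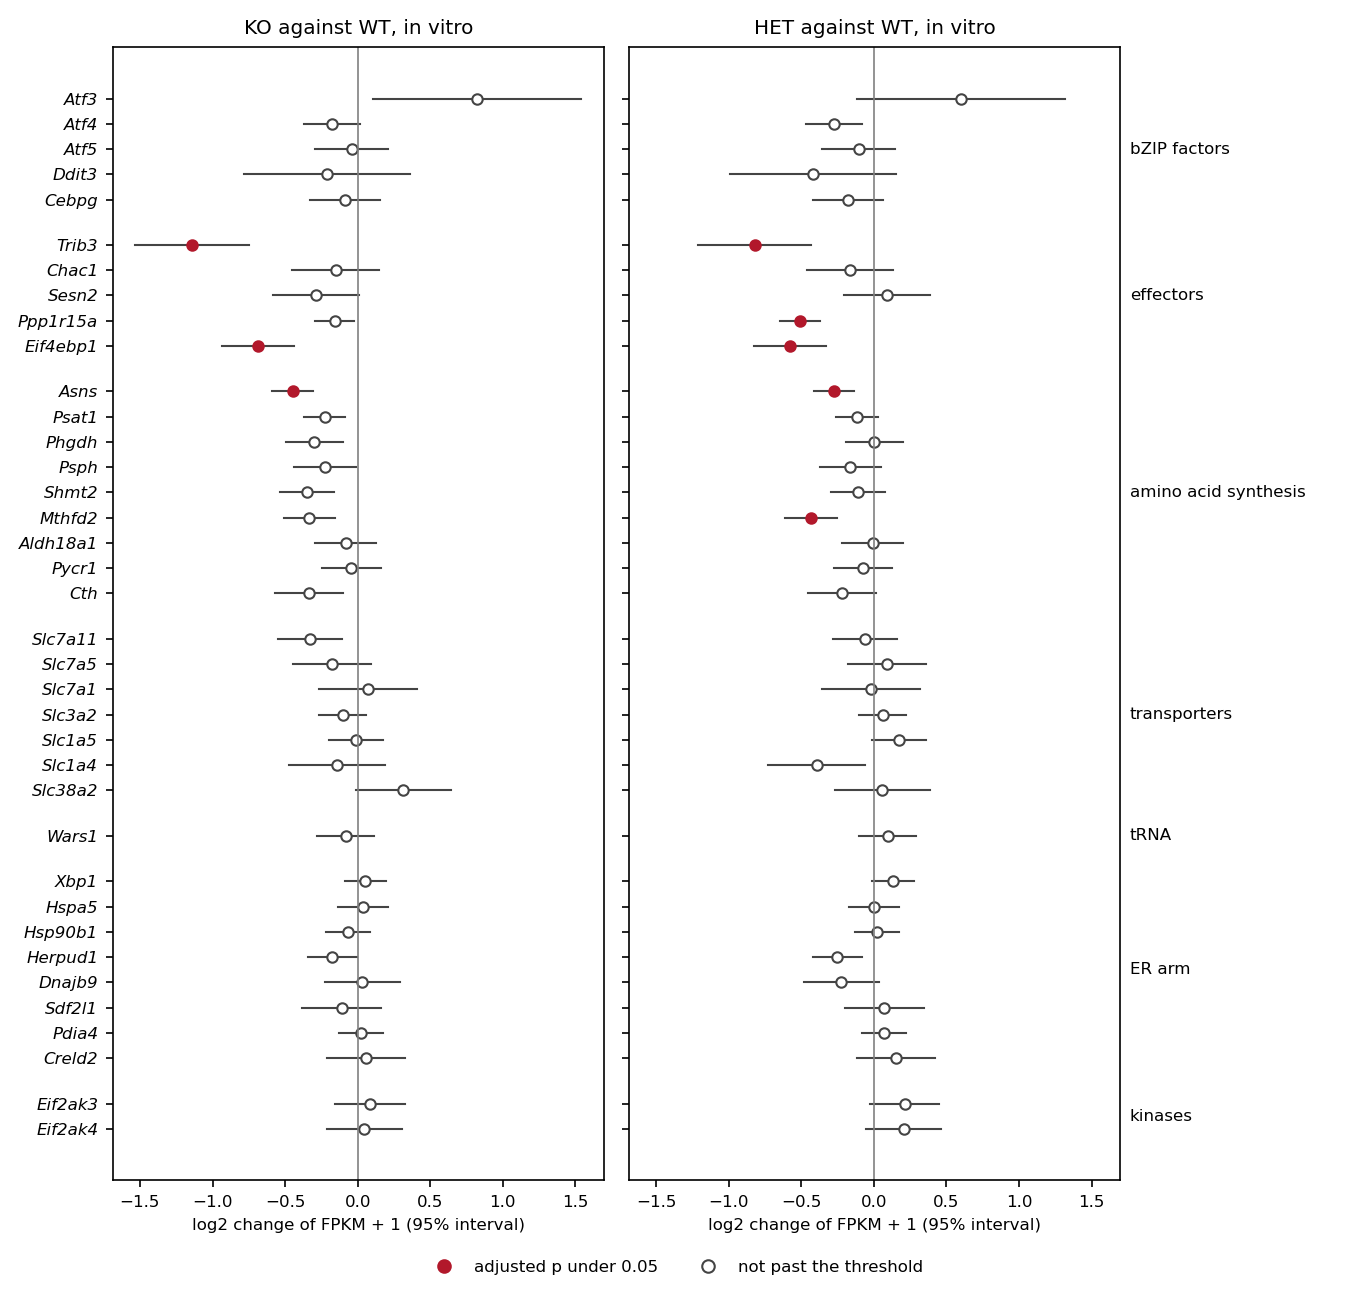
Log2 change of FPKM + 1 with its 95% interval for the 37 genes in vitro, grouped by role, in KO against WT (left) and HET against WT (right). Filled points are past an adjusted p of 0.05 (limma). Trib3, Eif4ebp1 and Asns are filled in both panels, Ppp1r15a and Mthfd2 in the HET panel only, and no ER arm gene is filled in either.

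The transcription factors of the arm did not show the same picture as its enzymes. Atf4 itself had 208, 248 and 215 FPKM in KO, 207, 216 and 204 FPKM in HET and 281, 233 and 246 FPKM in WT. KO and WT overlapped, with a log2 change of -0.18 and a 95% interval of -0.37 to 0.01 (limma, adjusted p = 0.290), and the activity of Atf4 is set mostly by its translation, which RNA levels do not measure. Atf3, a stress-induced factor, was 8.42, 12.4 and 15.2 FPKM in KO and 10.95, 4.15 and 4.97 FPKM in WT, a positive log2 change of 0.82 with overlap (limma, adjusted p = 0.196). Ddit3 (CHOP, a pro-apoptotic factor of prolonged stress) was 12.8, 12.6 and 13.0 FPKM in KO, 8.67, 12.9 and 11.8 FPKM in HET and 25.8, 11.9 and 10.9 FPKM in WT, so its spread came from WT replicate 1. Without that library the adjusted p of Atf3 was 0.0261, with a log2 change of 1.19, and that of the neutral amino acid transporter Slc38a2 was 0.0351, with a log2 change of 0.51. Atf5, a close relative of Atf4, and Cebpg, a C/EBP protein that dimerizes with it, had log2 changes of -0.04 and -0.09 and overlapped.

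Effectors and transporters were mixed in KO against WT. Sesn2, an inhibitor of mTORC1, and Ppp1r15a (GADD34), which directs phosphatase to eIF2alpha, had KO libraries all below WT, with log2 changes of -0.29 and -0.16 that missed the threshold (limma, adjusted p = 0.270 and 0.188). Chac1 overlapped, with a log2 change of -0.15. Of the 7 transporters none was called (1 had an unadjusted p under 0.05), 5 were lower and 2 higher, and their median log2 change was -0.10. The cystine transporter Slc7a11, whose promoter window held a pair of CARE matches above, had 1.92, 1.59 and 1.80 FPKM in KO and 2.45, 2.55 and 2.43 FPKM in WT. Its groups did not overlap (log2 change -0.33, limma adjusted p = 0.1001). Slc38a2 was the member of this group with the most positive change, 0.31, and its WT libraries spread from 28.7 to 47.0 FPKM. Slc7a5 and its heavy chain Slc3a2, the leucine importer, had log2 changes of -0.18 and -0.10. Slc7a1 (cationic amino acids), Slc1a4 and Slc1a5 (small neutral amino acids and glutamine) had 0.07, -0.14 and -0.01. Wars1, the tryptophanyl-tRNA synthetase, was 28.2, 26.9 and 28.0 FPKM in KO and 30.0, 32.2 and 26.3 FPKM in WT, with a log2 change of -0.08 and overlap. Of the 5 genes of the Atf4 arm with a CARE match, Asns was called, and Slc7a11, Chac1, Pycr1 and Atf3 had the log2 changes given above, from -0.33 to 0.82.

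The ER chaperone arm stayed close to WT in KO cells. None of its 8 genes was called by limma (1, Herpud1, had an unadjusted p under 0.05) and none had groups that did not overlap. Hspa5 had 406, 427 and 428 FPKM in KO, 460, 394 and 380 FPKM in HET and 420, 409 and 401 FPKM in WT. The log2 change of Hspa5 in KO against WT was 0.04, with a 95% interval of -0.13 to 0.21. Xbp1, the factor of this arm, had 148, 160 and 143 FPKM in KO and 147, 141 and 145 FPKM in WT, a log2 change of 0.05 with an interval of -0.09 to 0.19. Spliced and unspliced Xbp1 were not separated in these values. Hsp90b1, the co-chaperone Dnajb9, Sdf2l1 (an ER co-chaperone partner), the disulfide isomerase Pdia4 and the ER stress-induced Creld2 had log2 changes between -0.11 and 0.06. Herpud1, which serves ER-associated degradation, was the lowest at -0.17 (limma, adjusted p = 0.240). Across the 8 genes the 95% intervals reached from -0.38 to 0.33, so changes within that range are not resolved by 3 libraries a group. The kinases Eif2ak3 and Eif2ak4 had log2 changes of 0.09 and 0.05, with intervals of -0.15 to 0.32 and -0.21 to 0.31.

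**Figure D3:**
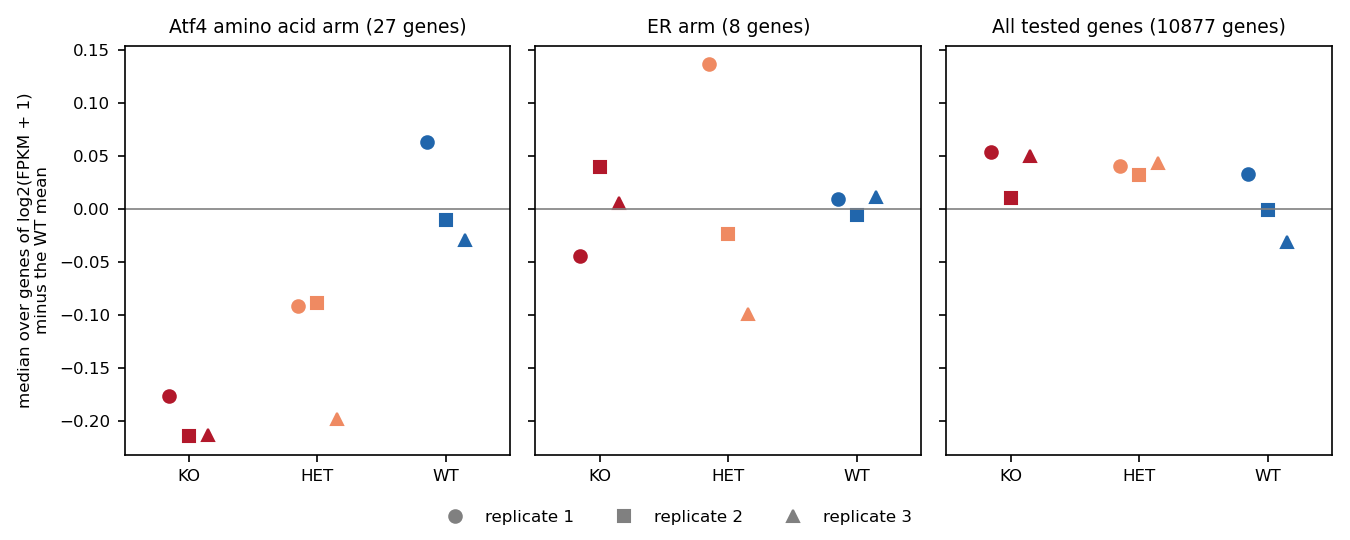
Median over genes of log2(FPKM + 1) minus the WT mean, for each in vitro library, over the 27 genes of the Atf4 arm, the 8 genes of the ER arm and all 10877 tested genes. The KO libraries sit at -0.18 to -0.21 in the Atf4 panel, lower than all WT libraries (-0.03 to 0.06), and between -0.05 and 0.04 in the ER panel.

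Library by library, the Atf4 arm medians were -0.18, -0.21 and -0.21 in KO, -0.09, -0.09 and -0.20 in HET and 0.06, -0.01 and -0.03 in WT, on the scale of log2 difference from the WT mean. Every KO library lay below every WT library, and HET lay between or beside KO. The ER arm medians were -0.05, 0.04 and 0.01 in KO, 0.14, -0.02 and -0.10 in HET and 0.01, -0.01 and 0.01 in WT, with overlap throughout. Over all tested genes the medians were 0.01 to 0.05 in KO, 0.03 to 0.04 in HET and -0.03 to 0.03 in WT. The WT mean was the highest of the 3 genotype means for 18 of 27 genes of the Atf4 arm and for 1 of 8 genes of the ER arm. With median-ratio size factors the ER arm median in KO against WT was -0.01 in place of 0.03, and without WT replicate 3 it was -0.02; the Atf4 arm median was -0.21 and -0.20.

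A pair of libraries held many of the highest values among the 37 genes. HET replicate 1 was the highest of the 9 libraries for 11 of 37 genes, 29.7% of them against 17.3% of all tested genes. These 11 were Phgdh, Shmt2, Aldh18a1, Slc7a5, Slc3a2, Slc1a5, Wars1, Hspa5, Sdf2l1, Pdia4 and Creld2, and they came from both arms. Sdf2l1 showed the split most, with 124 FPKM in HET replicate 1 and 90.5 and 83.5 FPKM in the other HET libraries. HET replicate 1 was at the same time the lowest library for 6 genes, among them Trib3, Ddit3, Cebpg and Dnajb9, which is 16.2% of the 37 against 12.3% of all tested genes. WT replicate 1 was the highest library for 10 of 37, among them Atf4, Ddit3, Cebpg, Trib3, Chac1, Mthfd2 and Dnajb9, against 17.1% of all tested genes. WT replicate 1 also had the lowest neutrophil marker sum, 606 FPKM, against 1556 and 1822 FPKM in the other WT libraries. Its sum of mast cell and basophil genes was 1269 FPKM, against 2527 and 3337 FPKM in those libraries. Its stem and progenitor sum was 202 FPKM, against 164 and 159 FPKM. The part of these differences in its values was not tested. WT replicate 3 was the lowest library for 30.4% of all tested genes, more than any other in vitro library, and for 16.2% of the 37.

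In HET cells against WT cells in vitro, 5 genes of the Atf4 arm fell and none rose, and again no ER arm gene was called. The share was 5 of 37, against 3.68% of all genes (0.735% lower and 2.94% higher). In 9 of the 37 every HET library lay below WT, against 11.9% of all genes, and in 2 every HET library lay above WT, against 17.2%. Because KO and HET were set against the same WT libraries, these changes are not independent of those in KO. Ppp1r15a (chr7:45522917-45526268) had 64.4, 63.4 and 61.9 FPKM in HET against 90.2, 90.3 and 90.9 FPKM in WT. Both groups were tight and far apart, with HET 30.0% lower (log2 change -0.51 ± 0.06, limma adjusted p = 0.000968), and the call held in all 17 alternative settings. RefSeq places 730 bases of the span of Tulp2 within that of Ppp1r15a, and the counting of shared reads is not given in the sources used here.

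Trib3, Eif4ebp1 and Asns, whose values are given above, fell in HET as well, with log2 changes of -0.82 ± 0.18, -0.58 ± 0.11 and -0.27 ± 0.06 (limma, adjusted p = 0.0292, 0.0196 and 0.0403). The fifth gene was Mthfd2, at 33.7, 38.1 and 33.4 FPKM in HET against 51.7, 47.2 and 44.1 FPKM in WT (log2 change -0.43 ± 0.08, limma adjusted p = 0.0156). These 4 calls were less stable than that of Ppp1r15a. That of Asns was lost in 11 of 17 settings, with adjusted p up to 0.138, and without HET replicate 3 Ppp1r15a alone was called. The number called was 2 without HET replicate 1, WT replicate 2 or WT replicate 3, and 3 without HET replicate 2. Phgdh, at 123, 99.0 and 96.3 FPKM in HET and 104, 107 and 105 FPKM in WT, was level on average (log2 change 0.00), as was Shmt2 within its spread (-0.11). Atf4 lay lower in every HET library than in any WT library, with a log2 change of -0.27 (limma, adjusted p = 0.0996). Slc1a4 also lay lower throughout (-0.40, limma adjusted p = 0.1497), and Slc1a5 higher throughout (0.17, limma adjusted p = 0.251).

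In the ER arm of HET cells, Herpud1 had 36.0, 37.3 and 36.0 FPKM against 40.5, 44.8 and 45.8 FPKM in WT. These groups did not overlap, with a log2 change of -0.25 (limma, adjusted p = 0.0870), and the call was made without WT replicate 1 (adjusted p = 0.0496). Xbp1 lay on the other side, with 156, 160 and 160 FPKM in HET and every library above WT (log2 change 0.13, limma adjusted p = 0.245). The median log2 change of the ER arm in HET against WT was 0.05, and it was -0.04 without HET replicate 1. Over the Atf4 arm the median was -0.11, and over all tested genes 0.04. The Atf4 arm median was -0.07 without HET replicate 3, -0.06 without WT replicate 1 and -0.03 after rescaling to TPM, where that of all genes was 0.11. Eif2ak3 and Eif2ak4 had log2 changes of 0.21 and 0.20 (limma, adjusted p = 0.266 and 0.325).

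KO cells against HET cells differed in 1 member, Ppp1r15a, against 1.99% of all genes (0.598% higher and 1.39% lower). Its KO libraries, at 78.5, 79.7 and 84.7 FPKM, lay between those of HET, at 61.9 to 64.4 FPKM, and those of WT, so the level did not follow the number of intact copies. KO was 28.0% above HET (log2 change 0.35 ± 0.06, limma adjusted p = 0.0121). The call was lost without KO replicate 3 or either of HET replicates 2 and 3 (adjusted p up to 0.0949) and with the replicate number as a block (adjusted p = 0.0513), while the direction held. Without HET replicate 1, 3 members were called, with Trib3 and Sesn2 lower in KO beside Ppp1r15a. In 8 of 37 every KO library lay below every HET library, against 11.1% of all genes, and in 2 above, against 11.3%. The 8 were Asns, Phgdh, Shmt2, Slc7a11, Slc3a2, Slc1a5, Wars1 and Hsp90b1, with adjusted p from 0.128 to 0.671 (limma). Phgdh was 85.6, 88.0 and 82.8 FPKM in KO and 123, 99.0 and 96.3 FPKM in HET (log2 change -0.30). The HET mean of Trib3 and Eif4ebp1 lay 77.0% and 86.6% of the way from the WT mean to the KO mean, that of Asns 65.0% and that of Shmt2 32.3%. The intervals of the KO against HET change were -0.71 to 0.07 for Trib3 and -0.36 to 0.13 for Eif4ebp1 on the log2 scale, so a difference of that size between KO and HET is not resolved.

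Other genes of these pathways, from lists that did not include the 37, were counted in the same fits. Of 25 tested genes among 28 other Atf4 targets, 2 fell and none rose in KO against WT, where 1.63% of all genes were called lower. The median log2 change of the 25 was -0.05, with 15 negative and 10 positive, beside 0.04 over all tested genes. Stc2, a secreted glycoprotein induced by Atf4, had 12.2, 16.0 and 12.5 FPKM in KO, 17.3, 21.5 and 23.0 FPKM in HET and 40.9, 31.4 and 29.8 FPKM in WT. The genotypes did not overlap, and Stc2 was lower in KO by a log2 change of -1.26 (limma, adjusted p = 0.00103) and in HET by -0.69 (adjusted p = 0.0231). Mthfd1l, which releases mitochondrial formate downstream of Shmt2 and Mthfd2, had 23.4, 25.5 and 22.7 FPKM in KO, 33.2, 32.5 and 34.2 FPKM in HET and 41.0, 35.5 and 34.3 FPKM in WT. It fell in KO against WT (-0.61, limma adjusted p = 0.00332) and against HET (-0.46, adjusted p = 0.0125). In KO against WT both calls held in all 17 alternative settings, while that of Stc2 in HET was lost in 6, with adjusted p up to 0.0980, and that of Mthfd1l in KO against HET in 4, each without 1 library (KO replicates 1 and 3, HET replicates 2 and 3), with adjusted p up to 0.0846.

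Of 18 tested tRNA synthetases none was called in KO against WT (4 had an unadjusted p under 0.05 in limma), with a median log2 change of -0.04. Of 32 tested genes among 34 other ER genes, 1 fell and none rose, against 1.63% and 1.36% of all genes, with a median of 0.01. The 1 gene was Ero1a, the oxidase that drives disulfide formation in the ER, at 152, 162 and 161 FPKM in KO, 198, 256 and 282 FPKM in HET and 351, 291 and 249 FPKM in WT. It fell in KO against WT (-0.89, limma adjusted p = 0.00641) and against HET (-0.61, adjusted p = 0.0412), the last call being lost in 9 of 17 settings. None of 6 ER stress sensor genes and none of 10 eIF2 machinery genes was called in KO against WT (0 and 2 had an unadjusted p under 0.05 in limma). In HET against WT the eIF2 subunit gene Eif2s2 fell, with 101, 100 and 95.1 FPKM in HET and 121, 117 and 120 FPKM in WT (-0.27, limma adjusted p = 0.0335), a call lost in 11 of 17 settings.

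In the marrow set many values of the amino acid genes were listed at 0, while few of the ER genes were. The table held 34 of the 37 genes, without Trib3, Chac1 and Slc1a4, and 25 passed the filter. Over the 24 listed genes of the Atf4 arm, 39.1% of values were listed at 0, and over the 9 synthesis enzymes 61.1%. The share was 3.12% over the 8 genes of the ER arm. These shares include genes that failed the filter, which 16 of the 24 and 8 of the 8 passed. Over all tested genes, which passed it by definition, the share was 22.6%, so it is not a like comparison for the Atf4 arm. Of the 12 genes above 0 in all 8 libraries, 6 belonged to each arm, which is 6 of 27 and 6 of 8. Asns was listed at 21.4, 0 and 1.72 FPKM in KO and at 0 in both HET and all 3 WT libraries, and Phgdh was above 0 in WT replicate 1 alone. Asns did not pass the marrow filter. Of the 9 synthesis enzymes 4 did, Psat1, Shmt2, Mthfd2 and Aldh18a1, and none was above 0 in all 8 libraries. Mthfd2 had 49.3, 0.634 and 38.4 FPKM in KO, 0 and 87.2 FPKM in HET and 0.0194, 7.85 and 74.7 FPKM in WT, with a KO against WT log2 change of 0.75 and a 95% interval of -3.95 to 5.44 (limma, adjusted p = 0.999). A value of 0 may be a failed estimate, and genes are given here as listed at 0.

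**Figure D4:**
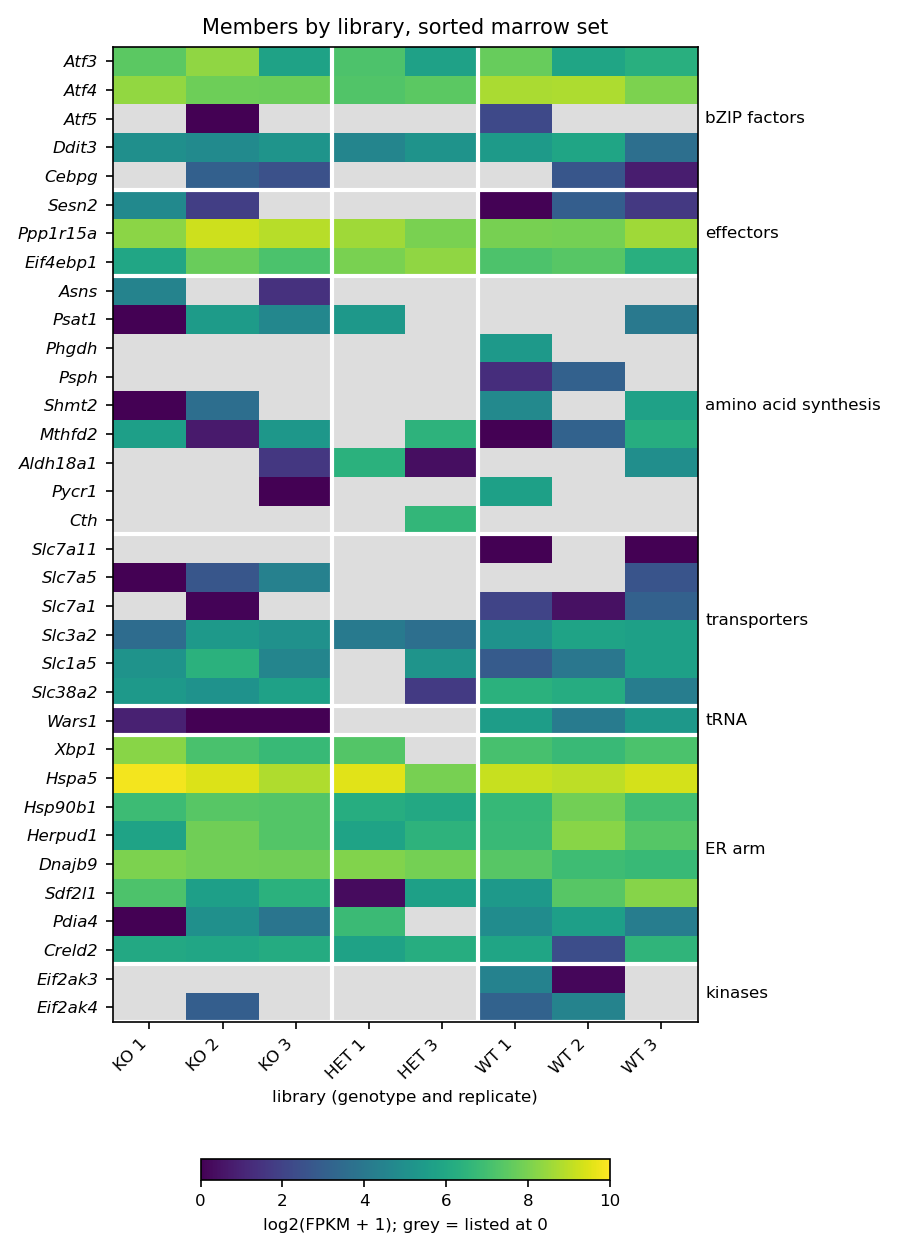
Log2(FPKM + 1) of the 34 listed genes in the 8 marrow libraries (KO 1 to 3, HET 1 and 3, WT 1 to 3), with grey for values listed at 0. The ER arm and a few stress genes (Atf3, Atf4, Ddit3, Ppp1r15a, Eif4ebp1) are filled in nearly every library, whereas most amino acid enzymes and transporters are grey in several.

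In KO against WT marrow 0 of 25 tested members was called by limma, as was 0 of 7246 genes (0%), and 1 member and 370 genes had an unadjusted p under 0.05. The 95% intervals were wide on the log2 scale. They reached from -6.05 to 3.59 across the 8 ER arm genes and from -5.89 to 6.34 across the 4 tested synthesis enzymes. Those of Atf4, from -1.51 to 0.44, and Hspa5, from -0.78 to 1.17, were among the narrowest. Atf4 had 332, 221 and 218 FPKM in KO, 156 and 178 FPKM in HET and 424, 438 and 261 FPKM in WT, so KO and WT overlapped while both HET libraries were lowest. Ppp1r15a had 308, 604 and 490 FPKM in KO, 385 and 254 FPKM in HET and 249, 240 and 381 FPKM in WT, with overlap. Eif4ebp1 had 60.0, 212 and 144 FPKM in KO, 252 and 324 FPKM in HET and 145, 170 and 79.2 FPKM in WT. Its HET libraries were the highest in marrow, and its KO and WT libraries overlapped (log2 change -0.03). In the ER arm, Hspa5 had 895, 712 and 443 FPKM in KO, 742 and 244 FPKM in HET and 573, 508 and 647 FPKM in WT. Dnajb9 had 260, 234 and 227 FPKM in KO, 273 and 239 FPKM in HET and 170, 118 and 107 FPKM in WT. Each KO and HET library of Dnajb9 was above each WT library, against 4.11% of all genes with KO all higher (log2 change 0.89, limma adjusted p = 0.993).

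Among the neutrophil, plasma cell, and monocyte and macrophage sums in marrow, the neutrophil sum alone separated WT from KO and HET. That of the 10 neutrophil genes was 129882 to 206446 FPKM in KO, 125054 and 126219 FPKM in HET and 1193 to 48243 FPKM in WT, with WT replicate 3 lowest. The 4 listed of 6 plasma cell genes, a cell type rich in ER chaperones, summed to 12.8 to 48.5 FPKM in KO, 154 and 0 FPKM in HET and 0.0419 to 17.4 FPKM in WT. The 8 listed of 10 monocyte and macrophage genes summed to 1068 to 1743 FPKM in KO, 1270 and 1384 FPKM in HET and 1210 to 1843 FPKM in WT. The 6 listed of 8 stem and progenitor genes summed to 16.9 to 109 FPKM in KO, 12.8 and 50.9 FPKM in HET and 86.3 to 129 FPKM in WT. Both HET libraries thus lay below WT in that sum, while KO overlapped both. The part of all these sums in the marrow values was not tested.

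In HET against WT marrow and KO against HET marrow no member was called, against 0.262% and 0.166% of all genes. By limma 4 of 25 and 3 of 25 members had an unadjusted p under 0.05, as did 902 and 817 of the 7246 genes. Groups did not overlap in HET against WT for 2 of 25 members that were higher, against 5.8% of all genes, and for 7 that were lower, against 24.3%. In KO against HET this held for 5 that were higher, against 20.7%, and for 1 that was lower, against 7.27%. The whole table was shifted in both comparisons with HET: the median log2 change over all tested genes was -0.99 in HET against WT and 0.83 in KO against HET, and after quantile normalization it was -0.03 and 0.01. The arm medians in HET against WT were -0.995 for the Atf4 arm and -1.17 for the ER arm, and after quantile normalization -0.08 and -1.07. Without HET replicate 3 they were -1.18 and 0.34, beside -1.59 over all genes, so the sign of the ER arm median rested on that library. The filter was applied again whenever a library was left out, so the members tested could change. Without KO replicate 2 the Atf4 arm median in HET against WT was -0.16, because Cebpg, Shmt2 and Slc7a5 no longer passed the filter. The HET and WT values themselves were the same. In KO against HET the arm medians were 0.72 and 0.74, and after quantile normalization 0.63 and 0.89. Without HET replicate 3 that of the ER arm was 0.15. In KO against WT the medians were 0.28 for the Atf4 arm, with 8 positive and 8 negative genes, and 0.10 for the ER arm, beside -0.18 over all genes. Neither kept its sign: the Atf4 arm median was -0.07, -0.02 and -0.10 without KO replicates 1, 2 and 3, and the ER arm median was -0.07 after rescaling to TPM and -0.02 without WT replicate 1. Single libraries decided the HET calls: without HET replicate 1 Xbp1 was called in HET against WT (adjusted p = 0.00256) and was listed at 0 in the remaining HET library, a lone sample assumed to vary like the other groups. Without HET replicate 3 Slc38a2 and Sdf2l1 were called (adjusted p = 0.0319 and 0.00555), and HET replicate 1 listed them at 0 and 0.228 FPKM. Among the pathway lists 1 gene was called in HET against WT marrow, Ssr2 of the ER translocon-associated complex, listed at 0 in the HET libraries, against 254, 95.8 and 120 FPKM in WT (limma, adjusted p = 0.0323). This call was lost in 9 of 16 settings, with adjusted p up to 0.307.

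Wars1 stood apart in its marrow values. It had 0.914, 0.0102 and 0.00971 FPKM in KO, 0 in both HET libraries and 46.4, 16.8 and 39.3 FPKM in WT, with no overlap between KO and WT, against 8.14% of all genes with KO all lower. The marrow log2 change was -4.70 (limma, adjusted p = 0.451), and in vitro it was -0.08. Wars1 was the 1 member of the 25 that reached 1 FPKM in marrow in 1 genotype only, so it passed the filter through the WT libraries in which it was high. With every KO and HET value under 1 FPKM, that filter fixed that neither genotype overlapped WT. The lack of overlap is therefore not taken as support for a change. A joint fit of both sets put the difference, in vitro minus marrow, at 4.61, and because of that filter its test is not taken as a sign that the change differed between the sets. No other tested member was called in the joint fit, where 0.738% of 6915 genes were, and Atf4 had a difference of 0.35 (limma, adjusted p = 0.892).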

How the data were processed

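The values are FPKM that the authors deposited, 1 table for each set, per the file headers. Per the submitters' processing notes the genome was mm10. Libraries were made with a VAHTS Universal V6 kit from TRIzol RNA, per the labels' protocols. Which aligner, counter, gene annotation and strandedness were used is not given in the sources used here. FPKM hold no raw counts and shift for all genes if a handful of transcripts dominate a library. HET replicate 2 of the marrow set was not used here.

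Members were matched by symbol, 37 in vitro (22017 genes) and 34 in marrow (13195 genes). Testing was limited to genes that reached 1 FPKM in 3 or more libraries of their table, 10877 in vitro and 7246 in marrow. Each table was fitted apart with limma (version 3.58.1, in R version 4.3.3 with statmod 1.5.0) on log2(FPKM + 1), with a mean per genotype, an intensity trend and robust moderation. P-values were adjusted by Benjamini-Hochberg over all tested genes, and called under 0.05. The added 1 shrinks log2 changes of weakly expressed genes. The contrast between sets came from a joint limma fit over 6915 genes. Before use the fit was run on data simulated with known changes and normal noise at the spread of each gene. That noise lacks the many values listed at 0 in marrow, so it does not check the fit on them. Alternatives were a pseudocount of 0.1, no filter, a filter at 5 FPKM, quantile normalization, median-ratio size factors, rescaling to TPM, only the compared groups, the replicate number as a block, and leaving out each library. All 37 members are named, and genes of 5 further pathway lists where called. Gene positions and promoters are RefSeq's on GRCm38.p6. The members and the lists were chosen with earlier results of these data known.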

Additional observations from a re-analysis of the deposited data

Results flagged for a closer look

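The KO against WT change of Wars1, the tryptophanyl-tRNA synthetase gene, was marked because a joint limma fit put the difference between the sets at 4.61 on the log2 scale (in vitro minus marrow). Wars1 passed the marrow filter only through its 3 WT libraries, where it was high, so this test is not taken as support for a difference. In vitro it was 28.2, 26.9 and 28.0 FPKM in KO and 30.0, 32.2 and 26.3 FPKM in WT. In marrow it was 0.914, 0.0102 and 0.00971 FPKM in KO and 46.4, 16.8 and 39.3 FPKM in WT, and listed at 0 in both HET libraries. With KO and HET under 1 FPKM throughout, the filter fixed that both lay below WT. The neutrophil marker sum in marrow was 129882 to 206446 FPKM in KO and 1193 to 48243 FPKM in WT, and its part in the result was not tested. The joint fit shares 1 estimate of spread between sets whose libraries correlated at 0.962 to 0.970 in vitro and at 0.427 to 0.621 in marrow.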

How the results depend on the processing

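Over 37 members, the called pathway genes and the alternatives, 3581 results kept their side of the threshold, 76 calls were lost, 22 were gained and 0 called genes changed direction; for genes not called, a change of sign was not counted. In KO against WT in vitro, members called were 3 in the main analysis, 5 with a filter at 5 FPKM, with quantile normalization or with median-ratio size factors, and 2 to 6 when 1 library was left out. All genes called were 325, 152 with no filter, 175 with only the compared groups, and 66 to 475 when 1 library was left out. In HET against WT in vitro, members called were 5, 2 with no filter, 3 after rescaling to TPM and 1 to 7 when 1 library was left out. All genes called were 400, 250 with no filter, 261 with only the compared groups, and 84 to 628 when 1 library was left out. In KO against HET in vitro, members called were 1 and 0 to 3 when 1 library was left out. All genes called were 216, 136 with a filter at 5 FPKM, and 73 to 344 when 1 library was left out. The ER arm had no call in KO against WT in vitro under any alternative.

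In marrow KO against WT, all genes called were 0, 2 with quantile normalization and 0 to 4 when 1 library was left out, with members at 0 throughout. In marrow HET against WT all genes called were 19, 35 with a pseudocount of 0.1, 12 with quantile normalization, 0 with only the compared groups and 0 to 323 when 1 library was left out, with 0 to 2 members. In marrow KO against HET they were 12, 31 with a pseudocount of 0.1, 6 with no filter, 7 with quantile normalization, 0 with only the compared groups and 0 to 330 when 1 library was left out, with 0 to 2 members. For the difference between sets, all genes called were 51, 23 with quantile normalization and 19 to 135 when 1 library was left out, and members called were 1 (Wars1, which passed the marrow filter only through WT), 0 with quantile normalization and 0 to 1 when 1 library was left out. The cause of these shifts was not tested.

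The labels do not say that replicate numbers pair samples. Deviations of same-numbered libraries from their group means correlated at -0.303 to 0.181 in vitro and at -0.0191 to 0.0323 in marrow. Those of differently numbered libraries correlated at -0.331 to 0.374 in vitro and at -0.0373 to 0.0210 in marrow. So few libraries a group cannot settle whether samples were paired. With the replicate number as a block, all genes called were 172 in KO against WT and 234 in HET against WT in vitro, and 0 in HET against WT and 0 in KO against HET in marrow. Members called with this block were 0 in KO against HET in vitro, where Ppp1r15a had an adjusted p of 0.0513. The marrow HET libraries had the lowest estimated depth, about 4.01 and 11.6 M fragments.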
